A study of Mus musculus with 2 samples.

Results

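Peptidergic C-fibre nociceptors of mouse dorsal root ganglia were selected on their counts, as the barcodes of at least 3000 unique molecular identifiers (UMIs) that carried, per 10000 UMIs, at least 5 of Tac1, at least 1 of Adcyap1 and at least 5 of Calca, and at least 1 UMI of Trpv1. They also carried, per 10000, fewer than 3 of Mrgprd and of Trpm8, and fewer than 5 of Th, of Mrgprb4 and of Nppb and Il31ra together, genes that mark other sensory neurons. This rule took 374 barcodes of the Penk KO library and 396 of the Penk ctrl library, 770 of 27777 barcodes in all.

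The 2 groups were 1 pooled library each of cervical dorsal root ganglia from mice given tamoxifen and 3 days of imiquimod, an irritant that brings on a psoriasis-like skin inflammation. Penk KO mice were Foxp3 CreER; Penk fl/fl and Penk ctrl mice were Foxp3 CreER; Penk fl/WT, so both carried the tamoxifen-dependent recombinase, made from the Foxp3 gene, which is active in regulatory T cells, and the control mice still carried a floxed allele beside a wild-type one. Tissue was fixed in 4% paraformaldehyde before it was dissociated. How many mice entered a pool, and their sex and age, was not stated in the labels. As each genotype is 1 library, no difference could be checked against replicates or tested. Intervals are exact 95% intervals that cover counting error only, ratios are Penk KO over Penk ctrl, a count of 0 is given with the share that 3 counts would make, and a gene is called higher where its level was at least 25% higher in Penk KO and lower where it was at least 20% lower, which are the 2 steps referred to below.

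Peptidergic C-fibre nociceptors are small, slowly conducting neurons that sense heat, chemical irritants and tissue damage. They release the neuropeptides substance P, made from Tac1, CGRP, made from Calca, and PACAP, made from Adcyap1, both in the spinal cord and in the skin, where these peptides widen vessels and act on immune cells. Enkephalins, the peptides made from Penk, act on opioid receptors coupled to inhibitory Gi proteins, and activating these receptors dampens the excitability of such neurons and their release of transmitter.

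The members made up 7.06% of the 5300 Penk KO barcodes of at least 3000 UMIs (6.38% to 7.78%) and 5.45% of the 7272 such Penk ctrl barcodes (4.94% to 5.99%). Their share was 1.30 times as large in the Penk KO library, and 1.28 to 1.38 times under the other gates tried. Members held a median of 21052.5 UMIs and 6117 genes in the Penk KO library and of 24695 UMIs and 6422.5 genes in the Penk ctrl library, 9533292 and 12298829 UMIs in all. Over all barcodes the libraries held 156441497 and 259136217 UMIs. The number of droplet barcodes found in both libraries was 4723, and 132 Penk KO members (35.3%) and 115 Penk ctrl members (29.0%) lay in such droplets. Only 3 droplets held a member in both.

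The limits of the rule cut through a continuous range. Between 5 and 6 UMIs of Tac1 per 10000, just inside, lay 15 members of each library, and 18 Penk KO and 19 Penk ctrl barcodes lay between 4 and 5 and passed every other criterion. For Trpv1, 35 Penk KO and 18 Penk ctrl members had exactly 1 UMI, and 19 and 27 further barcodes failed for having none. Another 60 Penk KO and 32 Penk ctrl barcodes failed only because of a gene of another neuron type.

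Levels are given as CPM, the UMIs of a gene per 1000000 UMIs summed over the members of a library. They are not scaled by gene length or probe number, so they compare libraries and cell groups, not genes. The genes of the rule stood, by construction, far above the other barcodes of at least 3000 UMIs. Tac1 was at 1933 CPM in Penk KO members and 1778 CPM in Penk ctrl members, Calca at 2249 and 2116 CPM, Adcyap1 at 1060 and 1168 CPM, and Trpv1, the capsaicin and heat receptor, at 453 and 448 CPM.

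Gfra3 and Gpx3, the remaining markers of the type, took no part in the rule. Gfra3, a receptor subunit for the growth factor artemin, was at 791.5 CPM in Penk KO members and 788.9 CPM in Penk ctrl members, against 48.1 and 41.8 CPM in the other barcodes. At least 1 UMI of it was found in 94.4% of Penk KO and 96.7% of Penk ctrl members. Gpx3, a secreted glutathione peroxidase, was at 1160 and 1248 CPM in the members, against 57.6 and 60.7 CPM elsewhere. Both markers were thus high in the members, whose choice rested on genes that vary together with them.

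**Figure D1:**
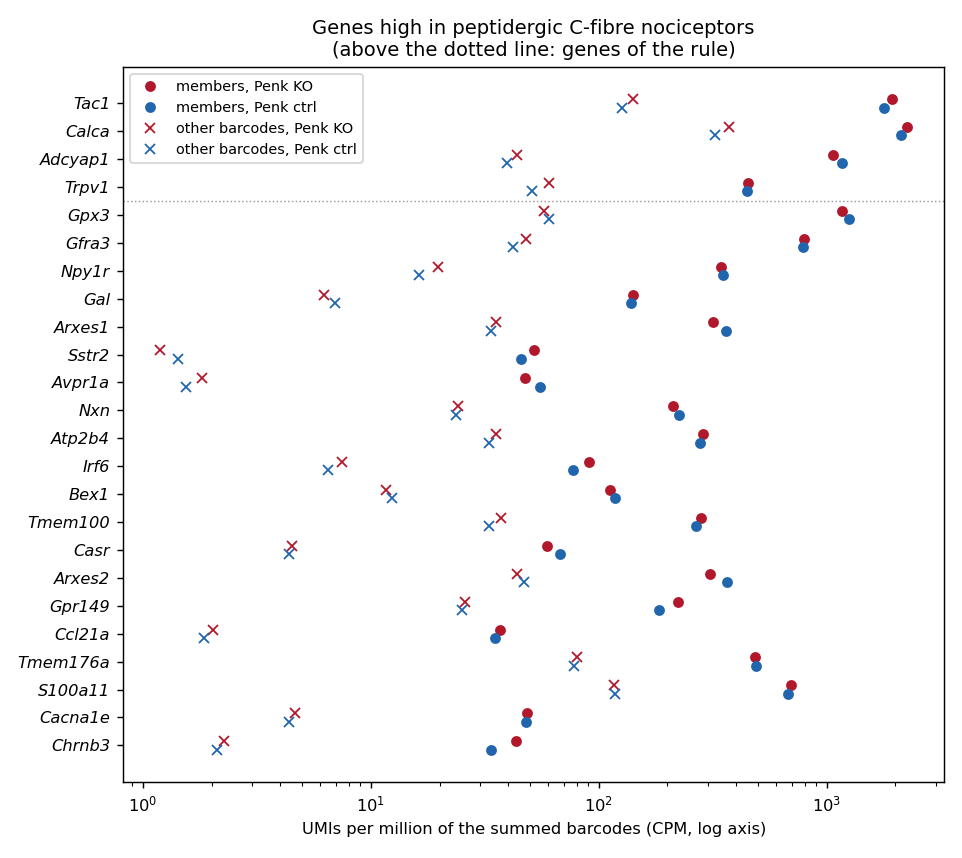
Level in CPM (log axis) of the 4 genes that chose the members, above the dotted line, and of the 20 other genes highest over the rest, in members (circles) and in all other barcodes of at least 3000 UMIs (crosses), with Penk KO in red and Penk ctrl in blue. For each gene the circles of both libraries lie close together and right of the crosses, as with Gpx3 at 1160 and 1248 CPM against 57.6 and 60.7 CPM.

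With the genes of the rule left out, the genes highest over the rest, ranked by the lower of the 2 libraries, were Gpx3, Gfra3 and Npy1r. Npy1r, an inhibitory receptor for neuropeptide Y, was at 342 CPM in Penk KO and 352 CPM in Penk ctrl members, against 19.8 and 16.3 CPM in the other barcodes. Gal, which encodes the neuropeptide galanin, followed at 142 and 138 CPM, against 6.21 and 6.98 CPM. The 20 also held Sstr2, a somatostatin receptor (51.7 and 45.7 CPM, against 1.19 and 1.42 CPM elsewhere), Avpr1a, a vasopressin receptor (47.5 and 55.1 CPM, against 1.82 and 1.55 CPM), Casr, the calcium-sensing receptor (59.3 and 67.5 CPM, against 4.52 and 4.36 CPM), the orphan receptor Gpr149 and the nicotinic subunit Chrnb3. Of these 20 genes, Chrnb3 was past the step between genotypes, at 43.3 CPM in Penk KO and 33.7 CPM in Penk ctrl members (ratio 1.29, 1.12 to 1.48), and the other 19 lay between the steps.

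Genes of other cell types were present in the members and not equal between the libraries. Satellite glia markers (Fabp7, Apoe, Kcnj10, Cdh19 and Ednrb) summed to 2299 CPM in Penk KO and 3098 CPM in Penk ctrl members, and the 5 myelinating Schwann cell markers to 1249 and 1190 CPM. Fibroblast markers summed to 310 and 250 CPM, endothelial ones to 92.0 and 85.5 CPM, and macrophage ones to 33.7 and 33.5 CPM. T cell markers were nearly absent, at 0.210 and 0.325 CPM, with Cd3d and Cd3g at 0 UMIs in both libraries and Cd3e at 0 in Penk KO members. The part of glial RNA in the ratios below was not tested beyond an alternative that kept only members with fewer than 20 glial UMIs per 10000, whose values are given where they matter.

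Of 22 neuropeptide precursors, 7 reached at least 20 CPM in a library with no more than 10% of their UMIs from 1 barcode (the condition for a ratio to be read). Of these 7, 5 were at least 2-fold over the other barcodes in both libraries. Among the 5, Tac1, Calca and Adcyap1 were genes of the rule, which fixed their excess, and only Gal and Cartpt were not. How many of all genes that met the condition were that far over the other barcodes was not counted. Past either step were 1 of the 7 and 2.65% of all genes that met the condition. Calcb, the second CGRP gene, was at 198 CPM in Penk KO and 199 CPM in Penk ctrl members, and Nmb, which encodes neuromedin B, at 379 and 378 CPM. Cartpt, the precursor of the CART peptides, was the only one of the 7 past the step, at 203 CPM in Penk KO and 147 CPM in Penk ctrl members (ratio 1.38, 1.29 to 1.47). Its UMIs were concentrated, with the top 10% of members holding 69.0% and 58.1% of them. At least 5 per 10000 were found in 45 of 374 Penk KO and 47 of 396 Penk ctrl members. With each barcode weighing the same the ratio was 1.03, and it was 0.788 in members below the median depth and 1.67 in those above it.

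Among 18 eligible genes for peptide processing and dense-core vesicles, the organelles that store and release neuropeptides, none was higher, 1 was lower and the median ratio was 0.972, beside 0.999 over all 7818 eligible genes. Of those 7818 genes 1.04% were higher and 1.61% lower. Scg2, a granin of these vesicles, was at 1110 CPM in Penk KO and 1049 CPM in Penk ctrl members. Pam, the enzyme that amidates peptides, was at 241 and 227 CPM. The lower gene was Vgf, which also stands in the list of activity-linked genes below. Of 20 eligible genes for transmitter release and glutamate transport, Unc13c was lower (16.6 CPM in Penk KO and 21.5 CPM in Penk ctrl members, ratio 0.772, 0.630 to 0.944), though its ratio was 1.08 with barcodes weighted equally. Slc17a6, the vesicular glutamate transporter of these neurons, was at 419 and 421 CPM.

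Growth factor receptors keep these neurons alive and tune their sensitivity. Ret, the signalling partner of Gfra3, was at 265 CPM in Penk KO and 261 CPM in Penk ctrl members, and Kit, the receptor for stem cell factor, at 254 and 237 CPM. None of the 6 eligible genes of this list was past the step, and their median ratio was 1.01.

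The 9 eligible sodium channel genes had a median ratio of 1.00 and the 22 potassium channel genes of 1.01, and none in either list was past the step. Scn10a, the tetrodotoxin-resistant channel Nav1.8, was at 944 CPM in Penk KO and 939 CPM in Penk ctrl members, Scn9a at 368 and 361 CPM, and Scn11a at 283 and 283 CPM. Kcnk3, a background potassium channel, was at 56.2 and 67.4 CPM in the members, against 8.71 and 8.71 CPM in the other barcodes. The 9 calcium channel genes had a median ratio of 0.982, and Cacna2d1, the target of gabapentin, was at 668 and 676 CPM.

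Of 12 eligible TRP and other transduction channels, 1 was past the step, beside 2.65% of all eligible genes. Trpa1, a receptor for irritant chemicals, was at 210 CPM in Penk KO and 146 CPM in Penk ctrl members (ratio 1.44, 1.35 to 1.53). A single Penk KO barcode held 7.39% of its UMIs, the top 10% of members held 71.6% of them in Penk KO and 70.3% in Penk ctrl, and the share of members with at least 5 per 10000 was 10.4% and 9.34%. Its ratio was 1.08 with barcodes weighing the same, 1.02 in members below the median depth and 1.58 in those above it. In the Mrgprd gate Trpa1 was at 244 and 243 CPM. P2rx3, an ATP-gated channel, was at 191 CPM in Penk KO and 217 CPM in Penk ctrl members, and Asic3, an acid-sensing channel, at 139 and 126 CPM.

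Opioid receptors are the proteins through which enkephalins act on neurons. Oprm1, which encodes the mu opioid receptor, averaged 659 CPM in Penk KO and 648 CPM in Penk ctrl members (ratio 1.02, 0.983 to 1.05). It was found in nearly every member, with a UMI in 97.9% of Penk KO and 98.0% of Penk ctrl members and a median of 6.65 and 6.68 UMIs per 10000. The quartiles also lay close, at 4.63 and 8.60 in Penk KO and 4.44 and 8.56 in Penk ctrl. The ratio was 0.959 in droplets that held a cell of 1 library and 1.07 after each barcode was thinned at random to 3000 UMIs, so no alternative brought it to the step. Oprl1, the nociceptin receptor, had 161 and 182 UMIs in all members together, Oprk1, the kappa receptor, 92 and 83 UMIs, and Oprd1, the delta receptor, 12 and 21 UMIs. These 3 were below the minimum for a ratio.

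Penk itself had 0 UMIs in Penk KO members and 5 in Penk ctrl members, and Foxp3 had 1 UMI in each. A count of 0 among 374 barcodes allows a share of up to 0.802% of members with a UMI, taken as 3 counts of the 374. Over all barcodes Penk had 4 UMIs in the Penk KO library and 582 in the Penk ctrl library. The labels do not say where its probes lie relative to the floxed part, so this count does not check the deletion. The members are thus cells whose own Penk signal was at or near 0 in both libraries.

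For receptors, the share of barcodes with a UMI was compared between cell groups after thinning every barcode to 3000 UMIs, since depth differs. The comparison groups were 568 Penk KO and 692 Penk ctrl barcodes with Mrgprd, the nonpeptidergic nociceptors (median 18292.5 and 28648.5 UMIs), 303 and 497 barcodes with Calca and Nefh but no Trpv1, the peptidergic A-fibre gate (8400 and 10674 UMIs), and 252 and 266 barcodes with Cldn5, an endothelial gene (7036.5 and 7778.5 UMIs). Oprm1 was found in 81.6% of Penk KO and 80.1% of Penk ctrl members, in 23.9% and 27.2% of the Mrgprd gate and in 63.4% and 66.8% of the A-fibre gate. In the endothelial gate, which should lack it, the shares were 21.8% and 15.4%, so the members' shares lie well above that background and those of the Mrgprd gate closer to it. Barcodes of the endothelial gate also carried neuronal RNA, with a UMI of the neurofilament gene Nefh in 81.3% and 90.6% after thinning.

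Which gate held the highest share differed from receptor to receptor. Npy1r was found in 52.4% of Penk KO and 53.5% of Penk ctrl members after thinning (84.8% and 87.6% before), against 1.76% and 1.01% of the Mrgprd gate, 0% and 2.41% of the A-fibre gate and 13.9% and 11.3% of the endothelial gate. S1pr3, a receptor for the lipid mediator sphingosine 1-phosphate, was found in 65.0% and 66.9% of members (92.2% and 92.7% before), 41.9% and 37.8% of the A-fibre gate and 35.3% and 36.1% of the endothelial gate. Sstr2 was found in 12.8% and 15.9% of members (39.3% and 41.9% before) and in 0% and 0% of the Mrgprd gate (0.176% and 0.578% before), where the count of 0 after thinning, taken as 3 counts, allows up to 0.528% and 0.434%. Casr in 15.8% and 19.4% of members, Galr1, a galanin receptor, in 10.7% and 13.6%, and Avpr1a in 9.36% and 14.6% had overlapping intervals between the libraries.

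Other receptors were more frequent in another gate than in the members. Ptger3, a prostaglandin E2 receptor, was found in 5.35% of Penk KO and 7.07% of Penk ctrl members after thinning, against 42.8% and 39.2% of the Mrgprd gate and 27.1% and 27.6% of the A-fibre gate. Htr3a, a subunit of the serotonin-gated channel, was found in 17.6% and 18.2% of members, close to the 16.7% and 17.3% of the endothelial gate, against 58.1% and 60.8% of the A-fibre gate. Adora1, an adenosine receptor, was found in 15.8% and 20.5% of members, against 28.7% and 36.0% of the Mrgprd gate, and Gabbr1, a GABA-B receptor subunit, in 63.6% and 71.5% of members, against 78.3% and 73.7% of the Mrgprd gate.

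**Figure D2:**
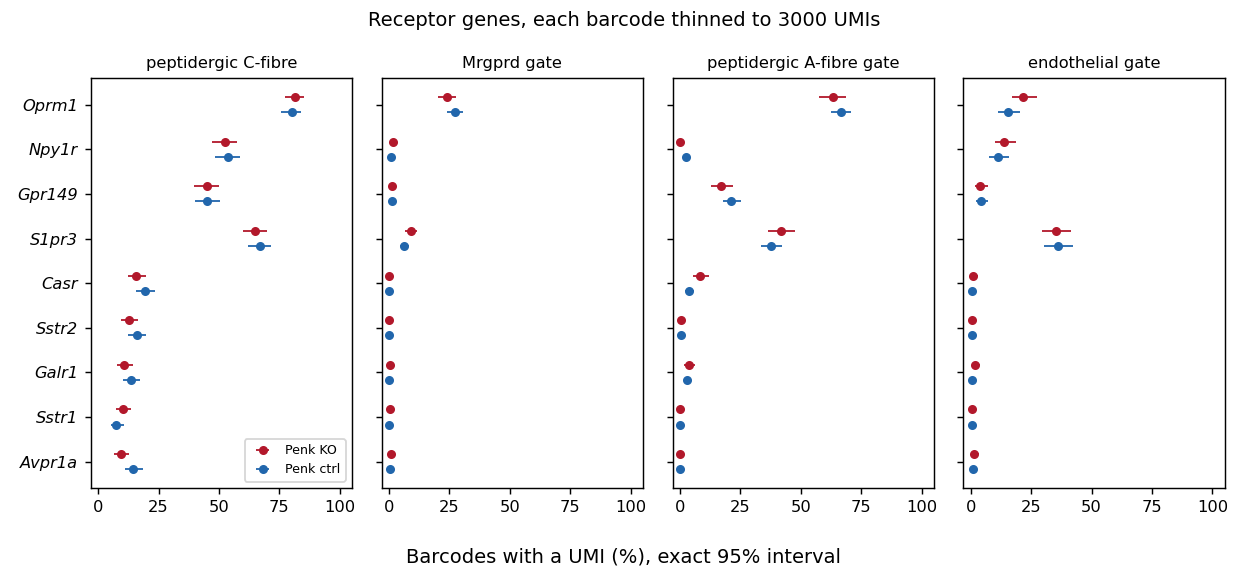
Percent of barcodes with at least 1 UMI of 9 receptor genes after each barcode was thinned to 3000 UMIs, in the members, the Mrgprd gate, the peptidergic A-fibre gate and the endothelial gate, with Penk KO in red above Penk ctrl in blue and bars for the exact 95% interval. Oprm1 stands at 81.6% and 80.1% in the members, and each pair of libraries overlaps in the members' panel.

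The other inhibitory receptors numbered 14 eligible genes, of which 8 were at least 2-fold over the other barcodes in both libraries. How many of all eligible genes were that far over was not counted, so the 8 are a description only. The 14 genes had a median ratio of 1.02, and 1 was past the step, beside 2.65% of all eligible genes. Gabbr1 was at 352 CPM in Penk KO and 385 CPM in Penk ctrl members, and Htr1b, a serotonin receptor that triptans act on, at 156 and 142 CPM. Sstr1, a somatostatin receptor, was past the step at 36.8 CPM in Penk KO and 25.0 CPM in Penk ctrl members (ratio 1.47, 1.26 to 1.72). Its direction depended on depth, with a ratio of 0.686 in members below the median depth and 1.95 above it, and 0.957 with barcodes weighing the same.

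Downstream of these receptors, 36 genes of Gi signalling, of Gi-gated potassium channels and of the kinases and arrestins that switch receptors off were eligible, with a median ratio of 1.00. Gnao1, the main Go subunit of neurons, was at 795 CPM in Penk KO and 762 CPM in Penk ctrl members, Arrb1, an arrestin, at 469 and 497 CPM, and the receptor kinase Grk2 at 302 and 286 CPM. Rgs20, which speeds the shutdown of Gi proteins, was lower at 40.0 CPM in Penk KO and 54.0 CPM in Penk ctrl members (ratio 0.740, 0.651 to 0.841), and was at 5.22 and 5.34 CPM in the other barcodes. Gng4, a G protein gamma subunit, was lower at 15.1 and 20.4 CPM (ratio 0.740). Rgs9 was higher at 29.3 and 23.1 CPM (ratio 1.27, 1.07 to 1.50), but its ratio was 0.845 below the median depth and 0.780 after thinning. Of the 36 genes 1 was thus higher and 2 were lower, beside 1.04% and 1.61% of all eligible genes.

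Receptors for inflammatory mediators were mostly below the minimum for a ratio. Of 60 measured, 20 were eligible, with 0 higher, 1 lower and a median ratio of 0.971. That stands beside 1.04% higher, 1.61% lower and a median of 0.999 over all eligible genes. Il6st, the shared signalling chain of the interleukin 6 family, was at 641 CPM in Penk KO and 574 CPM in Penk ctrl members (ratio 1.12, 1.08 to 1.16), Lifr at 898 and 871 CPM, and Ptgir, the prostacyclin receptor, at 197 and 196 CPM. Tlr4, the receptor for bacterial lipopolysaccharide, was low but well above the other barcodes, at 29.6 and 31.1 CPM against 2.98 and 2.48 CPM. The lower gene was Il4ra, which encodes the receptor chain shared by interleukin 4 and interleukin 13, at 74.6 and 101 CPM (ratio 0.740, 0.674 to 0.812). A UMI of it was found in 70.3% of Penk KO and 79.5% of Penk ctrl members. Its ratio lay between 0.674 and 0.774 under all 10 alternatives, on the same side of the step each time. Il4ra was also past the step in the A-fibre gate, at 16.1 CPM in Penk KO and 23.1 CPM in Penk ctrl (ratio 0.698). In the Mrgprd gate its ratio was 0.892 and in the other barcodes 0.938.

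Of 7818 eligible genes 81 were higher in Penk KO members (1.04%) and 126 were lower (1.61%), 207 in all (2.65%), and 3840 (49.1%) had a ratio above 1. Of the 81 higher genes 57 reached 20 CPM in both libraries, and of the 126 lower genes 82 did. Those that reached it in 1 library only are low genes whose selection favours a large ratio. In the Mrgprd gate 12 of the 81 and 23 of the 126 were also past the step in the same direction, whereas 21 and 52 lay on the other side of 1. Over all the genes eligible in the members, 1.01% were past the upper step and 2.1% past the lower step in the Mrgprd gate. There 3657 of these 7818 genes had a ratio above 1. In the A-fibre gate 23 of the 81 and 26 of the 126 were past the step in the same direction, beside 2.61% and 2.19% of all these genes, and in the other barcodes 9 and 8, beside 0.473% and 0.128%. Nothing is called particular to the members from this, as no test of the difference can be made with 1 library per genotype.

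The highest ratio was that of Nav2, a gene of neurite growth, at 25.0 CPM in Penk KO and 12.6 CPM in Penk ctrl members (ratio 1.98, 1.61 to 2.44). It was also higher in the Mrgprd gate, at 15.9 and 3.24 CPM, and in the A-fibre gate, at 26.4 and 10.3 CPM. Mettl16, an RNA methyltransferase, was at 29.1 and 18.1 CPM (ratio 1.61), and Tmem68 at 34.9 and 22.8 CPM (ratio 1.53). Tmem68 was also past the step in the Mrgprd gate (ratio 1.55), the A-fibre gate (1.37) and the other barcodes (1.36). Mettl16 had 1.22, 1.08 and 1.09 in the same groups. Lrrk1, a kinase, was at 25.7 and 18.3 CPM, against 4.23 and 4.00 CPM in the other barcodes, and the protocadherin Pcdhga7 at 32.9 and 23.0 CPM. Ogfod2 was at 28.4 and 20.4 CPM. The other 6 of the 12 highest were Sstr1, Trpa1 and Cartpt, described above, and the interferon-stimulated genes Ifit3, Ifit3b and Ifi44.

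The lowest ratio was that of Cc2d1b, at 29.6 CPM in Penk KO and 55.5 CPM in Penk ctrl members (ratio 0.533, 0.462 to 0.613). Rtl8b was at 66.6 and 117 CPM, Tmem267 at 27.0 and 46.8 CPM, and the protocadherin Pcdhga11 had a ratio of 0.611. These 4 were also past the step in the Mrgprd gate, the A-fibre gate and the other barcodes, where Cc2d1b, Rtl8b, Tmem267 and Pcdhga11 had ratios of 0.548, 0.598, 0.566 and 0.719. The other 8 of the 12 lowest had a ratio above 1 in the Mrgprd gate. Timp1, an inhibitor of matrix metalloproteinases, was at 44.2 CPM in Penk KO and 74.0 CPM in Penk ctrl members (ratio 0.597, 0.530 to 0.671), against 4.33 and 4.20 CPM in the Mrgprd gate (ratio 1.03), 2.05 and 3.42 CPM in the A-fibre gate (ratio 0.60) and 7.60 and 5.52 CPM in the other barcodes (ratio 1.38). A single Penk KO barcode held 9.98% of its UMIs. Socs1, a brake on cytokine signalling, was at 22.6 and 35.6 CPM (ratio 0.633), Smim3 at 14.2 and 25.4 CPM (ratio 0.556), and Adamts1, a secreted protease, at 17.6 and 29.2 CPM (ratio 0.604).

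Alkal2, a ligand of the receptor kinase ALK, was at 103 CPM in Penk KO and 167 CPM in Penk ctrl members (ratio 0.615, 0.570 to 0.665). That difference lay in the deeper members, where the ratio was 0.536, whereas it was 1.16 below the median depth of 22889.5 UMIs. Slc43a3, Nrarp and Pmepa1 completed the 12. Pmepa1, a gene induced by TGF-beta, was at 63.4 and 99.0 CPM (ratio 0.640), but at a ratio of 0.934 when members with 20 or more glial UMIs per 10000 were left out. Nrarp and Slc43a3 had ratios of 0.807 and 0.818 without the 18 Penk KO and 35 Penk ctrl members above 60000 UMIs.

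**Figure D3:**
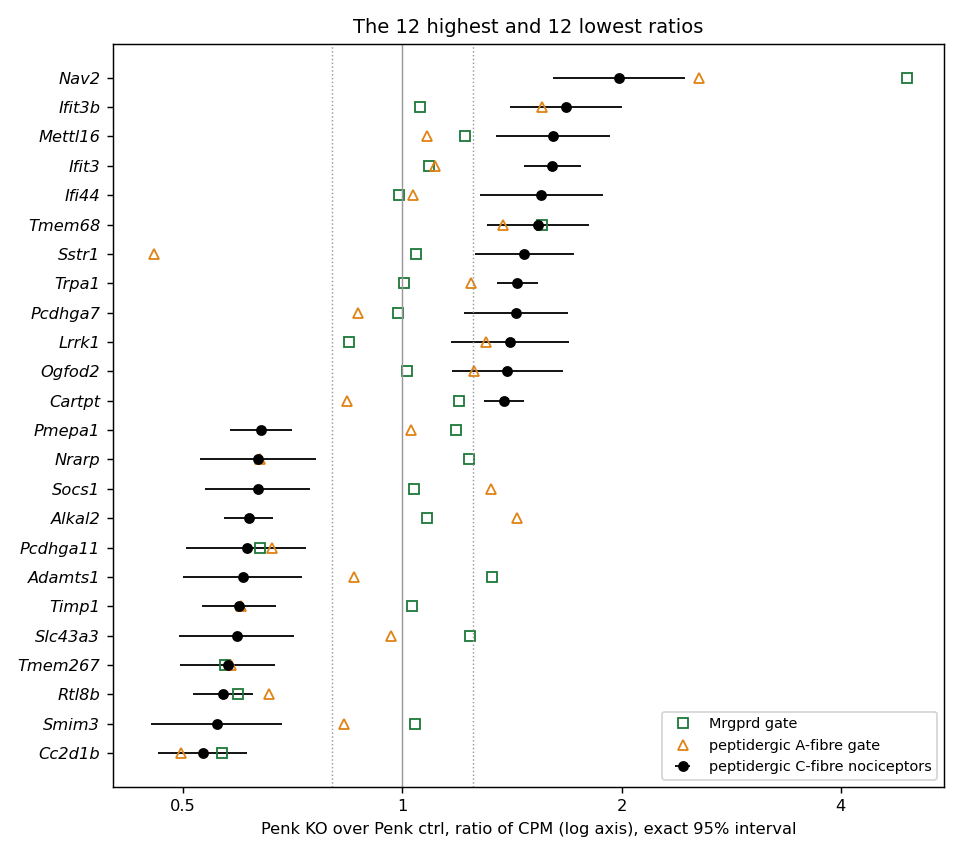
Ratio of CPM, Penk KO over Penk ctrl (log axis), of the 12 highest and 12 lowest eligible genes in the members (black circles with the exact 95% interval), with the ratio of the same gene in the Mrgprd gate (green squares) and the peptidergic A-fibre gate (orange triangles). Dotted lines mark the steps. Nav2 (1.98) and Cc2d1b (0.533) lie on the same side of 1 in every gate, whereas Timp1, Socs1 and Alkal2 lie at 1.03, 1.04 and 1.08 in the Mrgprd gate and at 0.60, 1.32 and 1.43 in the A-fibre gate.

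Interferon-stimulated genes, which cells switch on in response to interferons and which counter viruses, leaned upward. Of 34 measured 29 were eligible, 7 of these were higher and none lower, and 25 had a ratio above 1. Over all eligible genes 1.04% were higher, 1.61% were lower and 49.1% had a ratio above 1. The list's median ratio was 1.16, beside 0.999 over all eligible genes. The list's median was also above 1 in the Mrgprd gate (1.10), in the A-fibre gate (1.11) and in all other barcodes (1.09). Above 1 in these groups were 22, 27 and 23 of the 29 genes. Over all genes eligible in the members, 3657 of 7818, 3835 of 7817 and 4084 of 7818 were. Past the upper step were 3, 8 and 1 of the 29, beside 1.01%, 2.61% and 0.473% of all these genes.

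Ifit3, whose product hampers viral RNA, was at 118 CPM in Penk KO and 73.4 CPM in Penk ctrl members (ratio 1.61, 1.47 to 1.76), with 9.51% of the Penk KO UMIs in a single barcode. Its near-identical neighbour Ifit3b was at 30.9 and 18.5 CPM (ratio 1.68), and how reads divide between the pair is uncertain. Isg15, a ubiquitin-like modifier, was at 62.6 and 46.3 CPM (ratio 1.35, 1.20 to 1.52), and Usp18, the protease that removes it, at 86.6 and 65.7 CPM (ratio 1.32). Isg15 had larger ratios in the Mrgprd gate (1.75) and the A-fibre gate (1.63) than in the members. In the same gates Ifit3b had 1.06 and 1.55, Ifit3 1.09 and 1.11, and Ifi44 0.989 and 1.03. Rtp4 was at 60.9 and 47.1 CPM (ratio 1.29), Gbp2, a guanylate-binding protein, at 33.8 and 26.0 CPM (ratio 1.30), and Ifi44 had 237 and 197 UMIs (ratio of CPM 1.55). The most abundant of the list, Oasl2, was just short of the step at 487 and 389 CPM (interval of the ratio 1.20 to 1.30), and Ifit1 was at 293 and 244 CPM (ratio 1.20).

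Several genes of antigen presentation in the same list lay on the other side. H2-K1, a class I MHC gene, was at 145 CPM in Penk KO and 174 CPM in Penk ctrl members (ratio 0.833, 0.778 to 0.891). B2m, its light chain, was at 179 and 204 CPM (ratio 0.875). Tap1, a subunit of the transporter that supplies class I molecules with peptides, was at 32.3 and 36.9 CPM (ratio 0.875). These 3 and H2-D1 (99.4 and 99.6 CPM) were the 4 eligible genes below 1. The signal transducer Stat2 had 136 CPM in Penk KO and 111 CPM in Penk ctrl members (ratio 1.22).

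The upward lean was uneven over depth. In members above the median depth 24 of the 29 genes had a ratio above 1, with a median of 1.19, whereas below it 15 did, with a median of 1.01. Over all 7818 eligible genes 3867 and 3780 did. Past the upper step were 10 genes of the list above the median depth and 4 below it, beside 111 and 480 of all eligible genes. Ifi44 and Gbp2 turned round in the shallower members, with ratios of 0.813 and 0.820. The number of genes past the upper step was 1 with Tac1 and Calca at 10 per 10000, 4 in droplets of 1 library, 4 without members above 60000 UMIs, and 5 to 11 under the other alternatives. Over all eligible genes 1.52%, 1.43% and 1.24% were past it in the settings named, beside 1.04% in the main analysis. With equal weights 2.05% were, with no filter beyond 10 UMIs 7.15%, and after thinning 10.5%, so counts under those settings stand beside a larger share of all genes. Members with at least 5 Oasl2 UMIs per 10000 made up 40.9% in Penk KO (35.9% to 46.1%) and 29.8% in Penk ctrl (25.3% to 34.6%).

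The sequences upstream of the genes in this list were searched, since members of the list share a known type of element, the interferon-stimulated response element, whose core is a repeat of GAAA. The motif GAAANNGAAA and its reverse complement TTTCNNTTTC were sought on both strands, overlaps counted, in the 300 bases from 250 before to 50 after each start in RefSeq (GRCm38.p6, whereas the counts were made on GRCm39). It was found for 11 of the 24 eligible genes of the list with an entry (45.8%) and for 1079 of all 27025 genes of the table (3.99%), or in 3.44% of its 32851 promoters. Of the 7 higher genes 5 had an entry and 4 of these a match, and of the 19 others 7 had a match. The 250 bases before the start of these 4 are shown, with the matches in capitals, because they are the genes of the list past the step that carry the motif.
Ifit3, chr19:34583279-34583528, plus strand: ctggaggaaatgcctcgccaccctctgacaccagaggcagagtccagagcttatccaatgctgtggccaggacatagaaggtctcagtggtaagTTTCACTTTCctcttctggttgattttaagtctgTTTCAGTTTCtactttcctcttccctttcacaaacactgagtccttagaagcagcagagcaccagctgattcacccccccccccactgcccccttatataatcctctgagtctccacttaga
Ifit3b, chr19:34607707-34607956, plus strand: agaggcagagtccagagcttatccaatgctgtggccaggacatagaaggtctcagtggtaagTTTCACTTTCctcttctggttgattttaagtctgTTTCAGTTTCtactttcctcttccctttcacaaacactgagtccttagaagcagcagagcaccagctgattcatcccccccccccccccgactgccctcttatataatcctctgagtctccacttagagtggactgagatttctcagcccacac
Isg15, chr4:156200819-156201068, minus strand: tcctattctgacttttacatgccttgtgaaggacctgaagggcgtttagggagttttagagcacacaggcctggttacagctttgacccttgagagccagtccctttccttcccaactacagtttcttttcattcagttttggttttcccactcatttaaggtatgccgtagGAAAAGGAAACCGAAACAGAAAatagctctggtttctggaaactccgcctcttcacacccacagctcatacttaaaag
Gbp2, chr3:142620413-142620662, plus strand: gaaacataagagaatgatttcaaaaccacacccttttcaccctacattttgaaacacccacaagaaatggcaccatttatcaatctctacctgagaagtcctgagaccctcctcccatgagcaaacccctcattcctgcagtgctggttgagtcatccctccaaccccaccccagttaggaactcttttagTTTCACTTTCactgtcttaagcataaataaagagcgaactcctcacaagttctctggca
Ifit3 and Ifit3b carry the same pair of matches, on the reverse strand, within stretches that read alike. Isg15 carries 3 overlapping matches on its own strand, and Gbp2 carries 1 on the reverse strand. A match is a description of these letters and not a measured binding site.

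Immediate early and activity-linked genes, which neurons switch on after firing or growth factor signals, leaned the other way. Of 26 measured, 9 were eligible. Of these 0 were higher, 3 were lower and all 9 had a ratio below 1, with a median of 0.844. Over all eligible genes 1.04% were higher, 1.61% were lower and 49.1% had a ratio above 1. In the Mrgprd gate the median of these 9 genes was 1.00, in the A-fibre gate 0.857 and in all other barcodes 0.970. Above 1 in these groups were 4, 0 and 2 of the 9, so the A-fibre gate had none above 1 either. Over all genes eligible in the members, 3657 of 7818, 3835 of 7817 and 4084 of 7818 were. Past the lower step were 1, 2 and 0 of the 9, beside 2.1%, 2.19% and 0.128% of all these genes. The median in the members was 0.874 below the median depth and 0.833 above it.

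Vgf, whose product is cut into peptides that sensitise pain pathways, was at 354 CPM in Penk KO and 501 CPM in Penk ctrl members (ratio 0.707, 0.677 to 0.737). Its ratio stayed between 0.675 and 0.892 under the alternatives, and the 0.892 was that of members below the median depth. Bdnf, a neurotrophin that these neurons release in the spinal cord, was at 420 and 516 CPM (ratio 0.813, 0.781 to 0.846). Nptx2, a synaptic pentraxin, was at 217 and 257 CPM (ratio 0.844). The AP-1 genes Junb and Fosl2 were lower, Junb at 32.9 and 44.1 CPM (ratio 0.747, 0.648 to 0.860) and Fosl2 with 153 and 293 UMIs (ratio of CPM 0.674, 0.550 to 0.822). A UMI of Junb was found in 44.7% of Penk KO and 57.6% of Penk ctrl members. Junb also had a ratio of 0.749 in the Mrgprd gate, 0.654 in the A-fibre gate and 0.825 in the other barcodes. Fosl2 had 1.00, 0.803 and 0.970 in the same groups. Jun was at 338 and 362 CPM (ratio 0.934) and Jund at 561 and 571 CPM (ratio 0.983).

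Genes induced by glucocorticoids, together with the metallothioneins, numbered 13 eligible. Of these 0 were higher, 3 were lower, 2 had a ratio above 1 and the median was 0.892. Over all eligible genes 1.04% were higher, 1.61% were lower and 49.1% had a ratio above 1. The list's median was also below 1 in the Mrgprd gate (0.937), in the A-fibre gate (0.964) and in all other barcodes (0.943). Above 1 in these groups were 3, 3 and 2 of the 13 genes, beside 3657 of 7818, 3835 of 7817 and 4084 of 7818 genes eligible in the members. The 3 lower genes, Cdkn1a, Mt2 and Per1, were also past the step in the Mrgprd gate, with ratios of 0.621, 0.753 and 0.751. In the A-fibre gate they had 0.816, 0.861 and 0.823. Cdkn1a, a cell cycle inhibitor, was at 63.5 CPM in Penk KO and 98.1 CPM in Penk ctrl members (ratio 0.647, 0.586 to 0.714), the clock gene Per1 at 50.8 and 63.7 CPM (ratio 0.796) and the metallothionein Mt2 at 79.2 and 108 CPM (ratio 0.735), though Mt2 had a ratio of 1.04 below the median depth. Fkbp5 and Tsc22d3, both direct targets of the glucocorticoid receptor, had 115 and 118 CPM, and 122 and 120 CPM. Satellite glia markers were lower in Penk KO members too, and with members kept only under 20 glial UMIs per 10000 Cdkn1a had a ratio of 0.550 and Mt2 of 0.584.

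Axon injury genes, which mark damaged sensory neurons, had 9 eligible members with 0 past the step and a median ratio of 1.02. Gap43, a growth cone protein, was at 962 CPM in Penk KO and 897 CPM in Penk ctrl members. Transcription factors that set sensory neuron identity had 18 eligible members with 0 past the step and a median of 0.981. Runx1, a factor of nociceptor fate, was at 93.5 and 116 CPM (ratio 0.804, 0.739 to 0.875), just inside the step, and Prdm12 at 459 and 426 CPM.

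**Figure D4:**
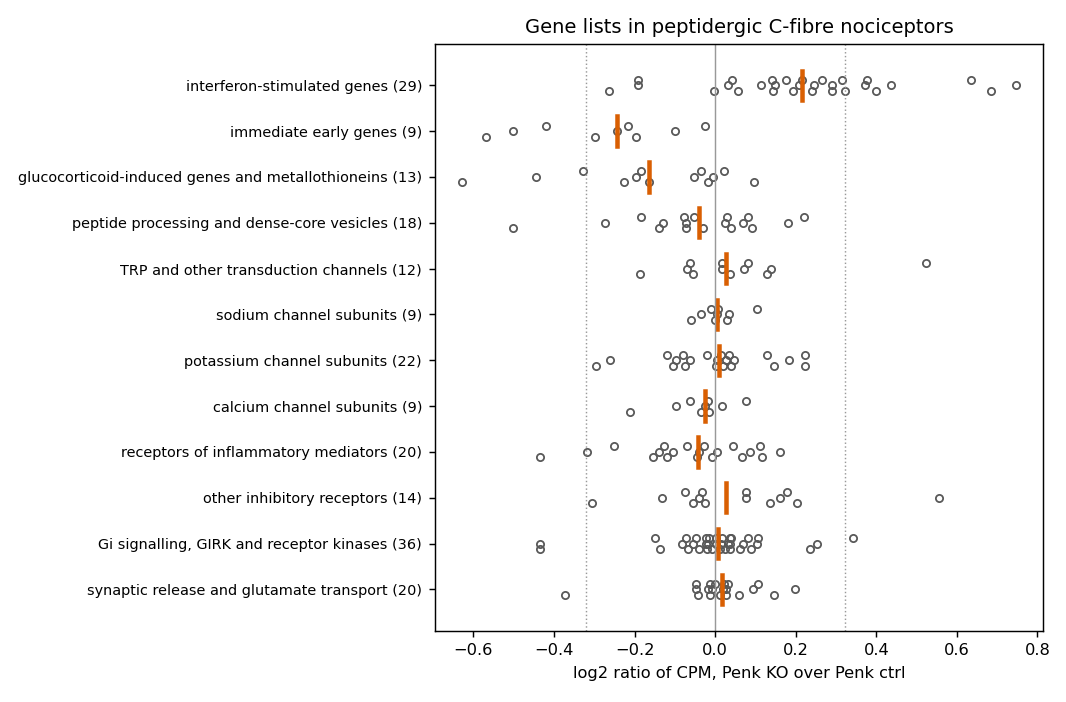
Log2 ratio of CPM, Penk KO over Penk ctrl, of each eligible gene (circles) of 12 gene lists in the members, with the list's median as an orange bar, the number of eligible genes in brackets and dotted lines at the steps. The interferon-stimulated genes have their median right of 0 and the immediate early genes left of it, and the channel lists cluster around 0.

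The members were not uniform, and the genes past or near the step varied widely among cells of the same library. Vgf had a median of 2.06 UMIs per 10000 in Penk KO members, with quartiles of 0.460 and 5.66, and a median of 2.72 in Penk ctrl members, with quartiles of 0.842 and 7.35. Members with at least 5 per 10000 made up 27.5% in Penk KO (23.1% to 32.4%) and 35.6% in Penk ctrl (30.9% to 40.5%). For Bdnf the shares were 32.9% and 37.9%. Timp1 was absent from most members, with no UMI in 73.0% of Penk KO and 67.2% of Penk ctrl members, and the top 10% of members held 79.6% and 69.1% of its UMIs.

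Among members of at least 10000 UMIs, 278 in Penk KO and 321 in Penk ctrl, several of these genes varied together. Spearman's rho over cells is given as a description, as the cells of a library share its depth and preparation. Vgf and Bdnf had a rho of 0.771 in Penk KO and 0.795 in Penk ctrl members. Timp1 varied with both, at 0.617 and 0.714 with Vgf and at 0.624 and 0.750 with Bdnf, and so did Avpr1a, at 0.575 and 0.576 with Vgf and at 0.636 and 0.626 with Bdnf. Gfra3 ran against Vgf (-0.429 and -0.391) and against Bdnf (-0.321 and -0.359), and Sstr1 ran against Vgf (-0.412 and -0.413) and against Bdnf (-0.462 and -0.408). Cells rich in Vgf and Bdnf thus tended to be rich in Avpr1a and Timp1 and poorer in Gfra3 and Sstr1, in both libraries.

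Gal and Kit had a rho of 0.428 in Penk KO and 0.488 in Penk ctrl members, Gal and Sstr2 0.468 and 0.423, and Gal and Plxnc1, a semaphorin receptor, -0.500 and -0.521. With the genes above, Gal had a rho near 0 for Vgf (-0.01 and 0.04) and Bdnf (0.114 and 0.026) and one of 0.249 and 0.292 for Avpr1a, whereas Sstr2 had 0.337 and 0.472 for Avpr1a and 0.269 and 0.279 for Bdnf. Sstr1 and Cartpt varied together at 0.469 and 0.382, and Alkal2 with the transcription factor gene Etv5 at 0.618 and 0.544.

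Several of these genes also varied with depth. The rho with depth was 0.254 in Penk KO and 0.337 in Penk ctrl members for Alkal2, 0.263 and 0.380 for Etv5 and 0.144 and 0.237 for Plxnc1. It was -0.180 and -0.262 for Kit, -0.085 and -0.200 for Gal, -0.043 and -0.221 for Sstr2, 0.021 and 0.212 for Vgf, and -0.07 and 0.05 for Bdnf. The part of depth in the correlations between genes was not tested. Etv5 was at 303 CPM in Penk KO and 367 CPM in Penk ctrl members (ratio 0.826), with ratios of 1.36 below the median depth and 0.781 above it.

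**Figure D5:**
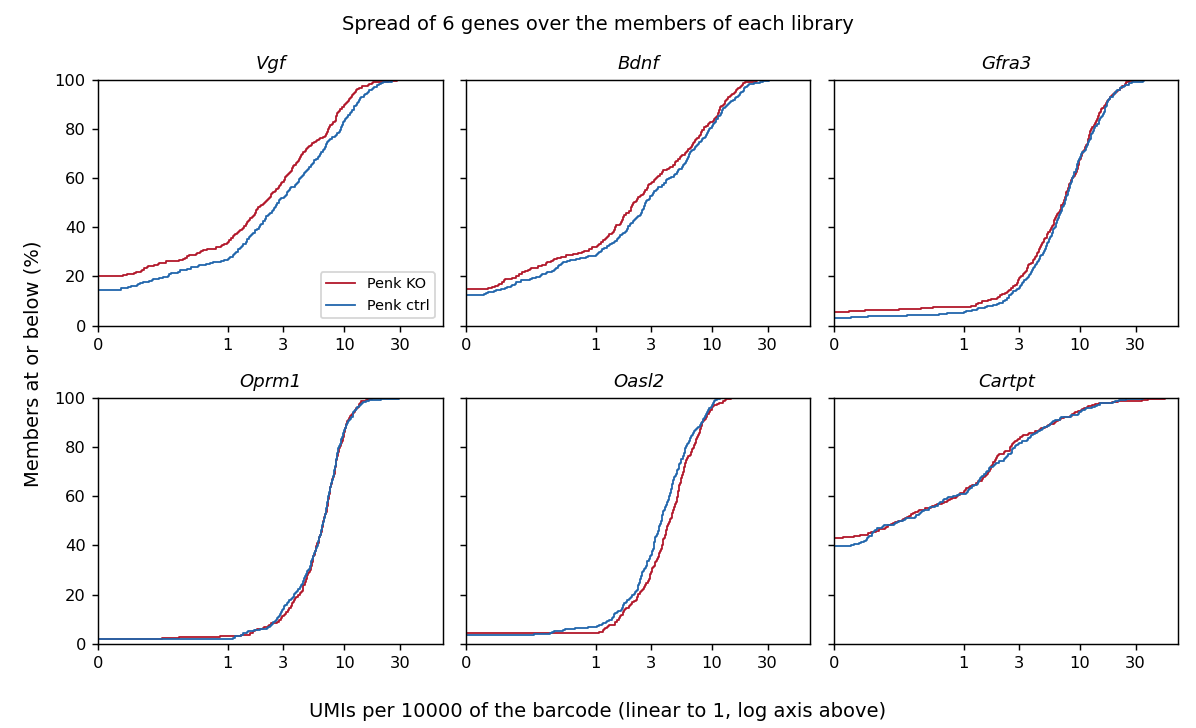
Cumulative percent of members at or below a level of UMIs per 10000 (axis linear to 1 and logarithmic above) for 6 genes, Penk KO in red and Penk ctrl in blue. The Vgf curve of Penk KO lies left of that of Penk ctrl (medians 2.06 and 2.72), the Oasl2 curve right of it, and the curves of Oprm1 and Cartpt nearly coincide.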

How the data were processed

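The authors made raw UMI counts per gene and barcode with Cell Ranger (7.0 per the labels' protocols, 8.0.1 per the file headers) against GRCm39, from probe pairs of the Chromium fixed RNA kit. The deposited counts of 19059 genes were used as they are, for barcodes already called as cells. The assay is named single-nucleus sequencing in the series text and single-cell sequencing in the labels. The submitters' processing notes also name Seurat, with no role.

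Members were gated on counts and their UMIs summed per library (pandas 2.3.3, numpy 2.4.6 and scipy 1.17.1 under Python 3.11.15). A CPM has an exact Poisson 95% interval, a ratio an exact conditional binomial one and a share a Clopper-Pearson one. Eligible genes had at least 20 CPM in a library, under 10% of UMIs from any 1 barcode in each, and a symbol on 1 row. Cells of a library are not replicates, so no p-value was computed. UMIs were taken as independent, so the intervals leave out the spread between cells, animals and preparations. The code for ratios and intervals was checked on simulated counts. No doublet caller was run, and members in droplets shared by both libraries were left out in an alternative.

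Genes were named as the 12 highest and 12 lowest ratios, the 20 highest over the other barcodes (5 CPM added), the most abundant and past-step genes of each of 19 lists, and the opioid genes. Other genes named were chosen after their values were seen. The members and lists were chosen with earlier results of these data known. Alternatives were a 5000 UMI minimum, a limit of 10 for Tac1 and Calca, droplets of 1 library, a glial limit of 20 per 10000, median-ratio scaling, no filter beyond 10 UMIs, equal weights and thinning. Leaving out barcodes above 60000 UMIs and splitting members at their median depth were chosen after seeing the data.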

Additional observations from a re-analysis of the deposited data

How the results depend on the processing

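With 1 library per genotype no replicate could be left out, and the values bear on these libraries alone. No paired analysis was possible because each group is 1 library. The share of members was 8.26% in Penk KO and 6.23% in Penk ctrl at 5000 UMIs, 5.17% and 3.88% with Tac1 and Calca at 10, 8.52% and 6.17% in droplets of 1 library, and 5.13% and 4.02% under the glial limit. It was 7.76% in Penk KO and 6.04% in Penk ctrl without barcodes above 60000 UMIs. Genes past the upper step numbered 946 with no filter, 160 with equal weights and 823 after thinning, beside 81. Genes past the lower step numbered 1306, 204 and 852 under the same alternatives and 208 with Tac1 and Calca at 10, beside 126. Without the filter and after thinning few UMIs stand behind a gene, so ratios scatter more.

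Of 400 ratios of the 40 named genes past the step, 306 kept their direction and moved little, 82 moved further and 12 changed direction. Below the median depth these were Ifi44 (0.813), Sstr1 (0.686), Cartpt (0.788), Alkal2 (1.16), Rgs9 (0.845), Mt2 (1.04), Unc13c (1.35) and Gbp2 (0.820). With equal weights they were Sstr1 (0.957) and Unc13c (1.08), and after thinning Rgs9 (0.780) and Unc13c (1.06). The cause was not tested.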
